A study of Homo sapiens with 6 samples.

Results

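The genes described here encode the 5 interferon-inducible proteasome subunits, PSMB8, PSMB9, PSMB10, PSME1 and PSME2, and 4 related subunits, PSMB5, PSMB6, PSMB7 and PSME3. They were chosen by gene symbol, 9 of 23340 names in the deposited tables, and all 9 passed the filter on low values. RNA was sequenced from 3 human cell lines with 2 libraries each: MCF10A from non-tumorigenic breast epithelium, HT-29 from a colon adenocarcinoma, and MDA-MB-436 from a breast carcinoma. The HT-29 cells are labelled as having received IFN-γ for 24 hours at a dose of 200 U per ml, and no treatment is recorded for the other lines. Each line grew in its own medium, McCoy's 5A with fetal bovine serum for HT-29, L-15 with fetal bovine serum and without CO2 for MDA-MB-436, and DMEM/F12 with horse serum, EGF, hydrocortisone, cholera toxin and insulin for MCF10A. HT-29 cells without IFN-γ were not analysed here, so line, medium and IFN-γ cannot be told apart in comparisons that include the IFN-γ libraries. As labelled, MDA-MB-436 against MCF10A has no recorded IFN-γ on either side, and line and medium cannot be told apart there. Whether the paired libraries come from separate cultures is not in the labels, so p-values reflect the spread between libraries alone, and this spread may be technical.

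The labels of the HT-29 and MDA-MB-436 libraries went against their marker genes, so each is called by its label below. These labels may be exchanged, and the IFN-γ treatment would then belong to the MDA-MB-436-labelled libraries. KRT20, an intestinal keratin, had normalised counts of 29899.7 and 30879.7 in the MDA-MB-436-labelled libraries, and no more than 1 read in either HT-29-labelled library. The brush-border gene VIL1 and the intestinal transcription factor gene CDX2 had 0 reads in the HT-29-labelled libraries, and VIL1 had 2055 and 2198 normalised counts in the MDA-MB-436-labelled libraries. VIM, a mesenchymal filament gene, ran the other way, with 36599 and 35267 in the HT-29-labelled libraries and 16.5 and 7.39 in the MDA-MB-436-labelled libraries. Recovered depths were 18.4M reads for the 25M HT-29-labelled library and 50.2M for the deeper one, 16.7M and 56.4M for the MDA-MB-436-labelled libraries, and 18.3M and 69.5M for MCF10A.

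The proteasome is the barrel-shaped protease that degrades ubiquitin-tagged proteins, and its cutting is done by 3 β subunits. In the standard particle these are PSMB6 (β1), PSMB7 (β2) and PSMB5 (β5). Interferon-γ induces PSMB9 (β1i), PSMB10 (β2i) and PSMB8 (β5i), which take those places in newly built particles and change which peptides are made for display on MHC class I. PSME1 and PSME2 form the PA28αβ cap, also interferon-inducible, whereas PSME3 forms the nuclear PA28γ cap.

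The promoters of 4 inducible genes are shown because they share a motif. Of the 9 genes, 7 matched an entry in the RefSeq promoter table (GRCh38.p14), which spans 250 bases before to 50 bases after each start, and PSMB6 and PSMB7 did not. The core of the interferon-stimulated response element was searched as GAAANNGAAA on both strands. It was present in 4 of the 5 inducible genes and in 0 of the 2 others with an entry, and in 4.38% of all 27305 genes with an entry (3.57% of 35116 windows, since a gene can have several starts). PSMB8 held it at 1 of its 2 listed starts. Each of the 4 held the same form, GAAAGCGAAA. This form was taken from the matches in these genes and then counted: 35 windows carry it, 0.100% of all, with their own among them. The stretches below run 5′ to 3′ along the gene's strand from 40 bases before to 20 bases after the start, with the motif or its reverse complement in capitals. PSMB8 is from its second listed start (chr6:32844028-32844087, minus strand), and PSMB10 lies at chr16:67936831-67936890 (minus strand). PSME1 (chr14:24136154-24136213, plus strand) and PSME2 (chr14:24146591-24146650, minus strand) lie on the same chromosome.
PSMB8: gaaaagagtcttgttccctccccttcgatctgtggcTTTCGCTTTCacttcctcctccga
PSMB10: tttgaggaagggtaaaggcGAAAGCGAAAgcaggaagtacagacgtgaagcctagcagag
PSME1: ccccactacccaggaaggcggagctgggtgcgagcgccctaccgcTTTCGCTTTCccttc
PSME2: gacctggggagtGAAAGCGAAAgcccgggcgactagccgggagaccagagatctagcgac

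The motif lay within 28 bases of the start in all 4, from 28 to 19 bases before it in PSME2 and from 6 to 15 bases after it in PSME1. The PSMB9 window had no match. PSMB9 lies beside TAP1, the gene of the peptide transporter's first subunit. The first of 2 listed starts of TAP1 is 488 bases from the start of PSMB9. TAP1 carried 2 overlapping cores at its first listed start and none at the other. The nearer lay 354 bases from the PSMB9 start, and both are in this stretch of chr6:32853795-32853854 (minus strand).
TAP1: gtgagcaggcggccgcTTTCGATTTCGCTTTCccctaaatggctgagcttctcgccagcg

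A second motif was the gamma-activated site (TTCNNNGAA, both strands, no overlap with the first). It was in 9.38% of all genes with an entry and in 7.66% of all windows. It matched in PSMB8 and in PSMB5 and PSME3, of which PSMB5 and PSME3 are not among the inducible subunits. In PSMB8 and PSMB5 the matches were at 1 of 2 listed starts. These matches describe letters in a window and not binding.

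**Figure D1:**
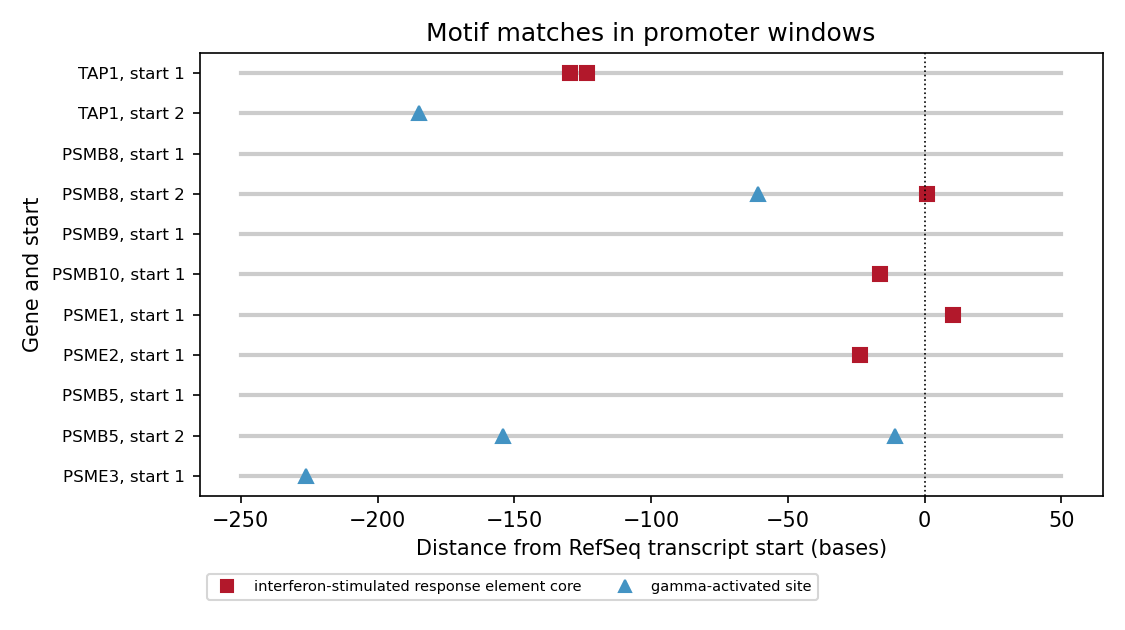
Position of each motif match (x axis, bases from the RefSeq start, dotted line at the start) in every promoter window of the 7 genes and of TAP1 (y axis, by listed start). Squares mark the interferon-stimulated response element core and triangles the gamma-activated site. The squares of PSMB8, PSMB10, PSME1 and PSME2 sit within 28 bases of the start, and the PSMB9 window is empty.

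Among the inducible catalytic subunits, PSMB9 spanned the widest range. Its normalised counts were 18.7 and 14.2 in MCF10A (10 and 29 reads), 1443 and 1436 in the HT-29-labelled libraries, and 19088 and 20371 in the MDA-MB-436-labelled libraries. The 3 lines did not overlap. By pooled reads PSMB9 was 1323-fold higher in the MDA-MB-436-labelled libraries than in MCF10A, with a 95% counting interval of 968 to 1861, and 94.8-fold higher in the HT-29-labelled libraries, with an interval of 69.2 to 133.5. Its log2 fold change of 10.15 ± 0.11 (SE) for the first comparison ranked 74 from the highest of 15638 genes tested.

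PSMB8 followed the same order of lines over a narrower range. Normalised counts were 1129 and 1059.5 in MCF10A, 2375 and 2307 in the HT-29-labelled libraries, and 14155 and 14867 in the MDA-MB-436-labelled libraries. Against MCF10A it was higher by 3.73 ± 0.04 (SE) on the log2 scale in the MDA-MB-436-labelled libraries (limma, adjusted p 1.78e-10) and by 1.10 ± 0.04 in the HT-29-labelled libraries (limma, adjusted p 9.70e-08). The libraries of the 3 lines did not overlap for PSMB8 either.

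PSMB10 did not follow that order. It had 921 and 932 normalised counts in MCF10A, 959 and 916 in the HT-29-labelled libraries, and 14281 and 15059.5 in the MDA-MB-436-labelled libraries. MCF10A and the HT-29-labelled libraries overlapped, with a log2 fold change of 0.02 ± 0.04 (SE; limma, adjusted p 0.721). The MDA-MB-436-labelled libraries stood 3.98 ± 0.04 above MCF10A (limma, adjusted p 1.12e-10), so PSMB10 was high in 1 line, where PSMB8 and PSMB9 were graded over 3.

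The PA28αβ genes moved nearly together. PSME1 had 2755 and 2666 normalised counts in MCF10A, 10336 and 10326 in the HT-29-labelled libraries, and 14596 and 15327 in the MDA-MB-436-labelled libraries. PSME2 had 1708 and 1686, then 6407 and 6431, then 10355 and 11071 in the same order. For both genes the lines did not overlap, and both other lines were above MCF10A by similar amounts for the 2 genes. Log2 fold changes against MCF10A were 2.46 for PSME1 and 2.66 for PSME2 in the MDA-MB-436-labelled libraries, and 1.93 and 1.92 in the HT-29-labelled libraries. Between the last named lines the difference was -0.53 for PSME1 and -0.74 for PSME2, below the fold minimum of the test.

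The constitutive catalytic subunits varied far less. PSMB5 had 6339 and 6308 normalised counts in MCF10A, 7487 and 7098 in the HT-29-labelled libraries, and 2619 and 2810 in the MDA-MB-436-labelled libraries. It was the only one of these 3 genes called lower in the MDA-MB-436-labelled libraries, where its log2 fold change against MCF10A was -1.22 ± 0.04 (SE; limma, adjusted p 3.72e-08). Expressed as pooled reads, PSMB5 was 2.28-fold higher in MCF10A, with an interval of 2.22 to 2.35.

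PSMB6, the counterpart of PSMB9, was called in no comparison. It had 3691 and 3738 normalised counts in MCF10A, 2994 and 2666 in the HT-29-labelled libraries, and 2244 and 2447 in the MDA-MB-436-labelled libraries, and the lines did not overlap. PSMB7, the counterpart of PSMB10, had 3137 and 3094 in MCF10A, 6563 and 6097 in the HT-29-labelled libraries, and 3331 and 3699 in the MDA-MB-436-labelled libraries. PSMB7 was thus highest in the HT-29-labelled libraries, the line in which PSMB10 was no higher than in MCF10A. Its log2 fold change there of 1.02 ± 0.05 (SE; limma, adjusted p 6.85e-07) lay at the fold minimum, and was 0.93 with trimmed-mean scaling and 0.97 without the 25M HT-29-labelled library, which ended the call.

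PSME3 had a profile unlike that of PSME1 and PSME2. Its normalised counts were 10191 and 10287 in MCF10A, 4490 and 4239 in the HT-29-labelled libraries, and 8963 and 9131 in the MDA-MB-436-labelled libraries. The HT-29-labelled libraries were lowest, with a log2 fold change of -1.23 ± 0.03 (SE) against MCF10A (limma, adjusted p 1.35e-08) and of -1.05 ± 0.03 against the MDA-MB-436-labelled libraries (limma, adjusted p 2.07e-08). Scaling to library size instead gave -0.92 and -0.73, which ended both calls.

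**Figure D2:**
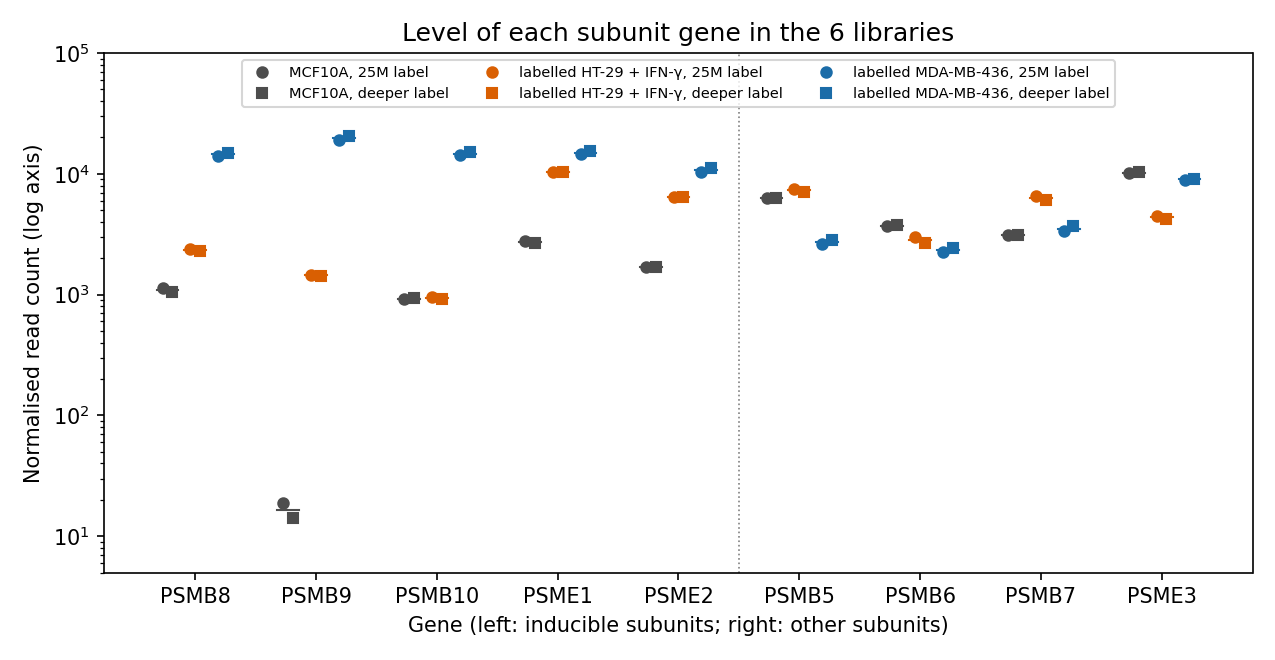
Normalised read count (y axis, log scale) of the 9 genes (x axis) in the 6 libraries; circles are the 25M libraries, squares the deeper ones, and short lines the mean of a line. PSMB9 runs from 14.2 in MCF10A to 20371 in an MDA-MB-436-labelled library, whereas the genes right of the dotted line stay between 2244 and 10287.

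In 1 limma fit of all 6 libraries, a gene was called where its adjusted p was below 0.05 and its log2 fold change at least 1 in either direction. In the MDA-MB-436-labelled libraries against MCF10A, 5 of the 9 genes were higher, where 25.6% of all genes tested were, and 1 was lower, where 23.7% were. The 5 higher genes were the 5 inducible subunits, with a median log2 fold change of 3.73 beside 0.00 over all genes and -0.42 over the other 4 subunits. In the HT-29-labelled libraries against MCF10A, 5 of 9 were higher (28.4% of all genes), namely PSMB8, PSMB9, PSME1, PSME2 and PSMB7, and PSME3 was lower (18.1%). Median changes were 1.92 for the inducible subunits and -0.10 for the others, beside 0.13 over all genes. These comparisons share the MCF10A libraries, so their agreement is not independent.

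Set directly against the MDA-MB-436-labelled libraries, the HT-29-labelled libraries had 1 of 9 genes higher (29.9% of all genes) and 4 lower (23.5%). The lower genes were PSMB10 at -3.97 ± 0.04, PSMB9 at -3.78 ± 0.11, PSMB8 at -2.63 ± 0.04 (log2 fold change ± SE) and PSME3. The gene that was higher was PSMB5, at 1.43 ± 0.04. PSMB6 at 0.27 and PSMB7 at 0.85 were not called. All 3 inducible catalytic genes were therefore lower in the libraries that carry the IFN-γ label. That label may be exchanged, since the marker genes went against it. In bulk RNA, fewer cells of a kind and less RNA per cell cannot be told apart.

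**Figure D3:**
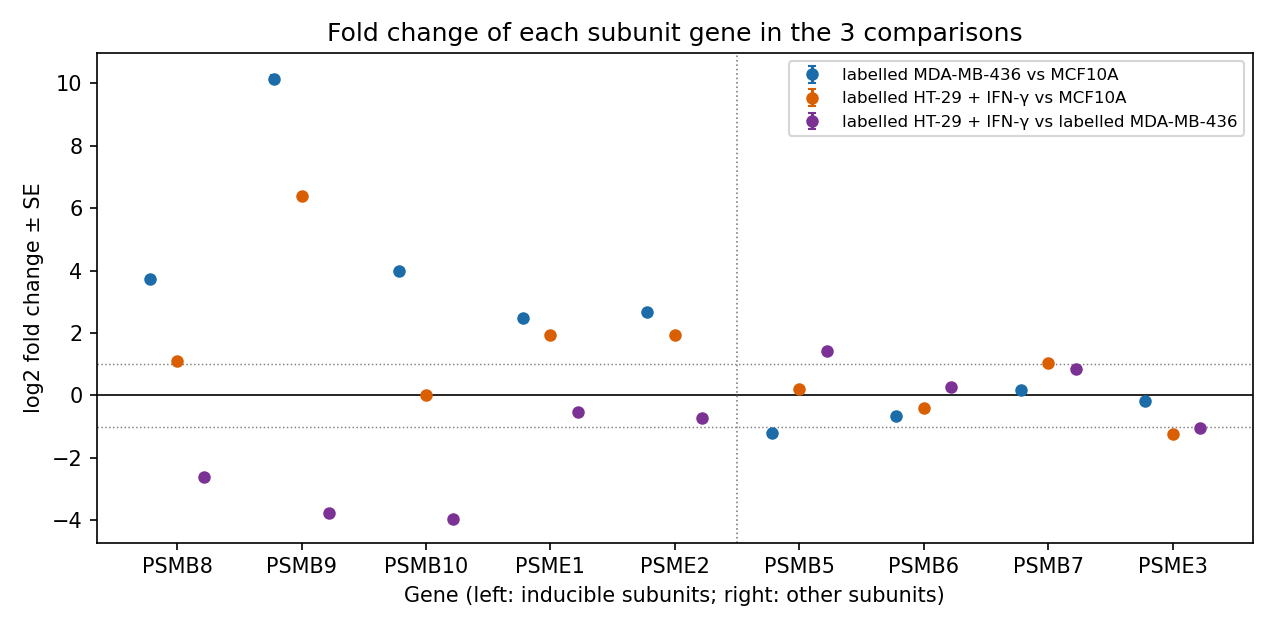
Log2 fold change with its SE (y axis; most error bars are smaller than the points) of the 9 genes (x axis) in the 3 comparisons, with dotted lines at the fold minimum of 1 in each direction. The inducible genes at the left reach 10.15 against MCF10A, whereas the genes at the right stay between -1.23 and 1.43.

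Levels of different genes were compared per kb of transcript, with the longest GENCODE transcript as the length. In MCF10A the order ran from PSMB5 (4887 ± 16.9 normalised counts per kb, SD, n = 2) through PSMB6 (4264 ± 38.0), PSMB7, PSME3, PSME1, PSME2 and PSMB8 (810.0 ± 36.5) to PSMB10 (761 ± 6.40) and PSMB9 (20.8 ± 4.01). The 3 inducible catalytic genes thus held the lowest places in MCF10A. In the HT-29-labelled libraries PSME1 led with 9094 ± 5.89, followed by PSMB7, PSMB5, PSME2, PSMB6, PSMB9 (1818 ± 6.53), PSMB8 (1733 ± 35.2), PSME3 and PSMB10 (769.5 ± 24.7). In the MDA-MB-436-labelled libraries PSMB9 led with 24911 ± 1145, followed by PSME1 (13170.4 ± 455), PSMB10 (12045 ± 452), PSMB8 (10741 ± 373) and PSME2, and PSMB5 was last with 2098 ± 105. All 5 inducible genes stood above all 4 others there. Of the neighbours in these orders, only PSMB6 and PSME3 in the MDA-MB-436-labelled libraries overlapped between libraries. Neighbouring places can turn on the length: the deposited RPKM imply 818 bases for PSME2, where the transcript has 1404, and 1042 for PSMB9, where it has 792.

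Each inducible catalytic subunit was then set against the subunit it replaces, as a log2 ratio per kb within each library, which no scaling between libraries can change. For the β1 place, PSMB9 to PSMB6 was -7.49 and -7.90 in MCF10A, -0.92 and -0.76 in the HT-29-labelled libraries, and 3.23 and 3.19 in the MDA-MB-436-labelled libraries. PSMB9 RNA was therefore 207-fold below PSMB6 RNA in MCF10A, 1.78-fold below it in the HT-29-labelled libraries, and 9.25-fold above it in the MDA-MB-436-labelled libraries. For the β5 place, PSMB8 to PSMB5 was -2.55 and -2.64, then -1.72 and -1.68, then 2.37 and 2.34 in the same order of lines. For the β2 place, PSMB10 to PSMB7 was -2.08 and -2.04, then -3.09 and -3.05, then 1.79 and 1.71. The β2 ratio was lowest in the HT-29-labelled libraries, with a difference from MCF10A of -1.01 on the log2 scale, whereas the β1 and β5 ratios differed from MCF10A by 6.86 and 0.89 there. An exact permutation test over the 3 lines gave p = 0.0667 for each of these ratios, the smallest that 6 libraries allow (adjusted p 0.0800 over 6 ratios), so no ratio could reach 0.05.

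Summed over the 3 places, the inducible subunits made up 11.6% and 11.3% of catalytic subunit RNA per kb in the MCF10A libraries. Their share was 21.5% and 22.4% in the HT-29-labelled libraries and 85.3% and 84.9% in the MDA-MB-436-labelled libraries. The share differed by place in the HT-29-labelled libraries, at 35.9% ± 1.80 (SD, n = 2) for β1, 23.5% ± 0.31 for β5 and 10.6% ± 0.19 for β2, while the MDA-MB-436-labelled libraries had 90.2%, 83.7% and 77.1%. These shares rest on the lengths used. With lengths implied by RPKM they were 28.6%, 23.65% and 12.65% in the HT-29-labelled libraries. In the MDA-MB-436-labelled libraries they were 86.9%, 83.8% and 80.3%. The sum of all 6 catalytic genes also differed, at 13921 ± 43.6 per kb in MCF10A, 19664 ± 881 in the HT-29-labelled libraries and 56073 ± 2505 in the MDA-MB-436-labelled libraries. In the last line the inducible genes gave 47696 of that sum and the constitutive genes 8377, against 12329.8 for the constitutive genes in MCF10A.

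**Figure D4:**
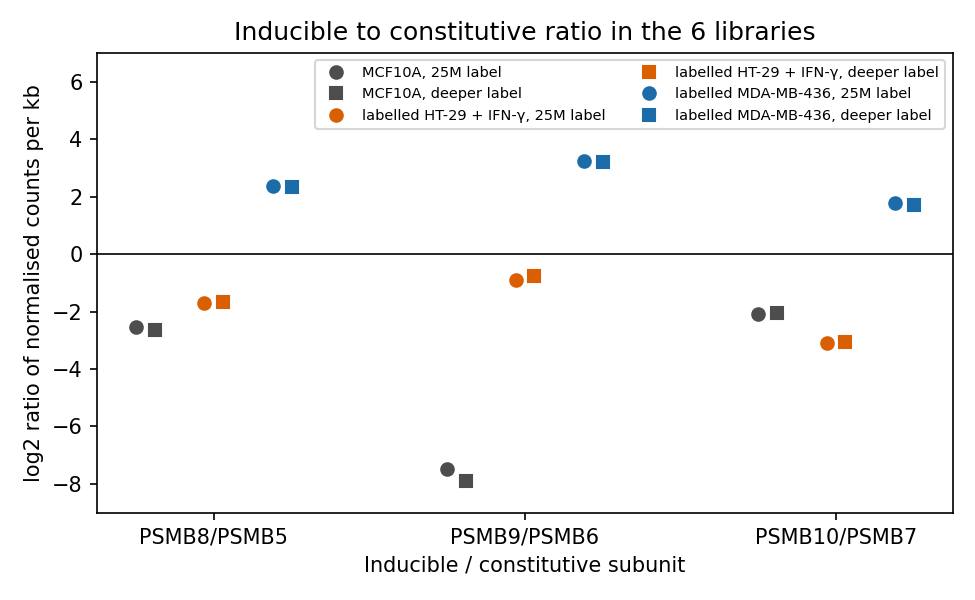
Log2 ratio of each inducible subunit to the constitutive subunit it replaces, per kb (y axis), for the 3 pairs (x axis); circles are the 25M libraries and squares the deeper ones. All 3 ratios are above 0 in the MDA-MB-436-labelled libraries and below 0 in the other 4 libraries, and PSMB10/PSMB7 is lowest in the HT-29-labelled libraries.

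The ratio between the cap genes was steadier. PSME1 to PSME2, as a log2 ratio per kb, was 0.99 and 0.97 in MCF10A, 0.996 and 0.989 in the HT-29-labelled libraries, and 0.80 and 0.78 in the MDA-MB-436-labelled libraries (exact permutation p = 0.133, adjusted p 0.133). Its level rests on the length used for PSME2, and with the lengths implied by RPKM the means were 0.29, 0.30 and 0.09. PSME1 to PSME3 was -0.32 and -0.38 in MCF10A, 2.77 and 2.85 in the HT-29-labelled libraries, and 2.27 and 2.31 in the MDA-MB-436-labelled libraries. PA28α RNA was thus 1.28-fold below PA28γ RNA in MCF10A. It was above PA28γ RNA by 7.02-fold in the HT-29-labelled libraries and by 4.90-fold in the MDA-MB-436-labelled libraries.

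Neighbouring transcripts that overlap these genes can affect their counts. On the opposite strand this depends on the strand setting of the counting, which the sources used here do not give. On the same strand it can occur whatever the setting. The overlaps named are those of the GENCODE annotation. RNF31 and, under another symbol, PSMB8-AS1 were among the genes counted. Whether the annotation used for counting held the overlaps is not known. PSMB8-AS1, a non-coding RNA that overlaps exons of PSMB8 on the opposite strand and of PSMB9 on the same strand, had normalised counts of 3.75 and 8.84 in MCF10A, 72.0 and 77.2 in the HT-29-labelled libraries, and 381 and 353 in the MDA-MB-436-labelled libraries. RNF31, a ubiquitin ligase gene that overlaps PSME2 on the other strand, had means of 1723, 3786 and 2086 in the same order. PSMB10 overlaps the annotated gene AC040162.1 on its own strand, and PSME1 overlaps EMC9 on the other, and neither neighbour was analysed here. Their part in the results was not tested.

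Of 42 other subunit and assembly genes of the proteasome 40 were tested. In the MDA-MB-436-labelled libraries against MCF10A 1 was higher (25.6% of all genes) and 2 were lower (23.7%), with a median log2 fold change of 0.00. The gene that was higher was PSMA4, an α-ring subunit, with 7738 and 7608 normalised counts in MCF10A and 32419.5 and 32891 in the MDA-MB-436-labelled libraries. The lower genes were PSMD6, of the 19S lid, at -1.32 and PSMG1, an assembly chaperone gene, at -1.03 (log2 fold change). In the HT-29-labelled libraries against MCF10A, 1 was higher (PSMD10, at 1.36; 28.4% of all genes) and 5 were lower (18.1%), with a median of -0.35. The lower genes were led by the assembly chaperone gene PSMG4 at -1.67 and the α-ring gene PSMA1 at -1.41. Against the MDA-MB-436-labelled libraries, the HT-29-labelled libraries had 4 higher (29.9% of all genes) and 8 lower (23.5%), with a median of -0.28. PSMA4 at -2.69 and PSMG4 at -2.29 were lowest, and PSMD6 at 1.69 and PSMB4 at 1.58 highest. None of the 6 ATPases of the 19S base was called in any comparison, and their log2 fold changes ran from -0.996 to 0.45. The lowest, PSMC4 in the HT-29-labelled against the MDA-MB-436-labelled libraries, was just short of the fold minimum.

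**Figure D5:**
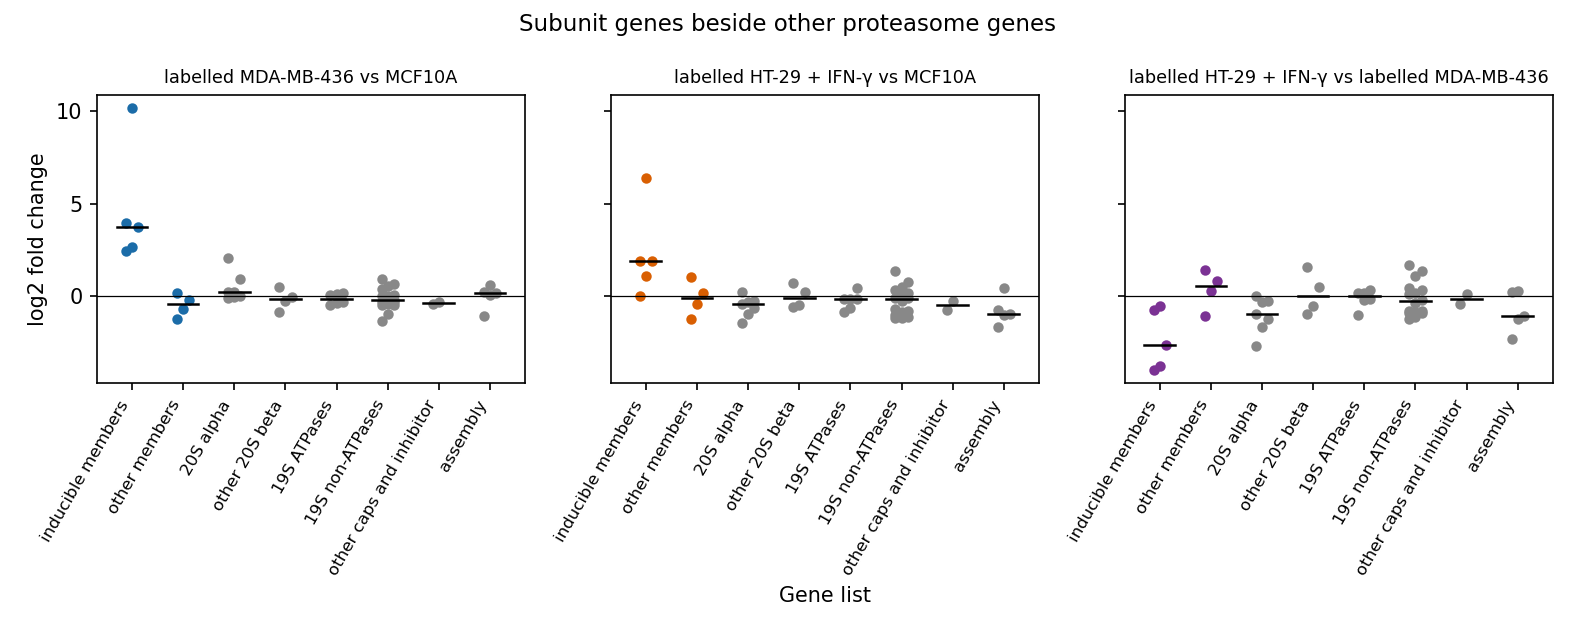
Log2 fold change (y axis) of the 5 inducible and 4 other subunit genes (coloured) and of the tested genes of 6 other proteasome lists (grey), with medians as lines, in the 3 comparisons. The median of the inducible genes is 3.73, 1.92 and -2.63, and the medians of the grey lists lie between -1.05 and 0.22.

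POMP, the chaperone gene that proteasome assembly depends on, had 7251 and 7496 normalised counts in MCF10A, 3739.7 and 3697 in the HT-29-labelled libraries, and 8646 and 8773 in the MDA-MB-436-labelled libraries. Its log2 fold change in the HT-29-labelled against the MDA-MB-436-labelled libraries was -1.23, which was called. Against MCF10A, POMP was at -0.987 in the HT-29-labelled libraries, just short of the fold minimum, without overlap between libraries. It was at 0.24 in the MDA-MB-436-labelled libraries, and neither was called. Of 4 genes that control proteasome gene expression, 2 were higher in the MDA-MB-436-labelled libraries than in MCF10A (25.6% of all genes) and 0 lower (23.7%). NFE2L1, the factor that restores proteasome synthesis when activity falls, was higher by 1.23. NFE2L2, the oxidative stress factor, was higher by 1.83. None of the 4 was called in the HT-29-labelled libraries against MCF10A (28.4% of all genes higher, 18.1% lower), with NFE2L1 at -0.48 and NFE2L2 at 0.47. Against the MDA-MB-436-labelled libraries, the HT-29-labelled libraries had 3 of the 4 lower (23.5% of all genes) and 0 higher (29.9%). NFE2L1 was at -1.71 and NFE2L2 at -1.36 there.

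Genes that carry the interferon signal were mostly higher outside MCF10A. Of 12 listed genes, 11 were higher in the MDA-MB-436-labelled libraries than in MCF10A (25.6% of all genes) and 7 in the HT-29-labelled libraries (28.4%). None was lower, where 23.7% and 18.1% of all genes were, and the median log2 fold changes were 3.73 and 1.58. IRF1, a factor known to bind interferon-stimulated response elements, had 393 and 414 normalised counts in MCF10A, 2234 and 2194 in the HT-29-labelled libraries, and 79637 and 79442 in the MDA-MB-436-labelled libraries. NLRC5, the activator of MHC class I genes, had means of 239, 936 and 9250.0 in the same order. IRF8 had 0 reads in MCF10A, which allows up to 1.17 normalised counts at a floor of 3 reads over the group, and means of 105.6 in the HT-29-labelled libraries and 1366 in the MDA-MB-436-labelled libraries. SOCS1, a feedback inhibitor of JAK kinases, had 22.5 and 16.2 in MCF10A, 258 and 269 in the HT-29-labelled libraries, and 1097 and 1043 in the MDA-MB-436-labelled libraries. Of the receptor genes, IFNGR1 was higher in the MDA-MB-436-labelled libraries than in MCF10A by 1.61 and IFNGR2 was not called at -0.70. Against the MDA-MB-436-labelled libraries, the HT-29-labelled libraries had 10 of the 12 lower (23.5% of all genes) and IFNGR2 higher by 1.24 (29.9%).

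Genes that handle the peptides downstream were less uniform against MCF10A. Of 10 listed, which include the non-coding neighbour PSMB8-AS1, 8 were higher in the MDA-MB-436-labelled libraries than in MCF10A (25.6% of all genes) and 1, the cytosolic peptidase gene THOP1, was lower at -2.06 (23.7%). In the HT-29-labelled libraries 4 were higher than in MCF10A (28.4%), namely B2M, ERAP1, LAP3 and PSMB8-AS1, and THOP1 was lower at -1.64 (18.1%). Against the MDA-MB-436-labelled libraries, the HT-29-labelled libraries had 8 of the 10 lower (23.5% of all genes) and 0 higher (29.9%). TAP1, the neighbour of PSMB9, had 1631 and 1531 normalised counts in MCF10A, 2419.6 and 2393 in the HT-29-labelled libraries, and 57856 and 59204 in the MDA-MB-436-labelled libraries. Its log2 fold change in the HT-29-labelled libraries against MCF10A was 0.61 and not called, while that of PSMB9 was 6.38. TAP1 counts were 96.8-fold those of PSMB9 in MCF10A, 1.67-fold in the HT-29-labelled libraries and 2.97-fold in the MDA-MB-436-labelled libraries. These neighbouring genes therefore did not keep 1 ratio across the lines (exact permutation p = 0.0667, adjusted p 0.0800). B2M, the light chain of MHC class I, had means of 13376, 97477 and 213289.5.

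White blood cells carry these subunits without stimulation, so their markers were measured. The sum of 9 leukocyte markers was 508 and 482 normalised counts in MCF10A, 548 and 554 in the HT-29-labelled libraries, and 124 and 121 in the MDA-MB-436-labelled libraries, and CD14 and ITGAM made up most of it. CD2 was at 0 reads in all 6 libraries, CD3E in all 4 libraries other than MCF10A, and MS4A1 in both MDA-MB-436-labelled libraries. PTPRC, the pan-leukocyte gene, reached 10.3 at most. Their part in the results was not tested. Reads of the MCF10A keratin gene KRT5 were present in the other 25M libraries at 236 and 123 normalised counts and in the deeper ones at 77.2 and 3.69, beside 424101 in the MCF10A 25M library. KRT20, at 29899.7 in the 25M MDA-MB-436-labelled library, was at 0 in both other 25M libraries, and PSMB9 was at 1443 and 18.7 there.

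By distance between profiles over the 6 libraries, on log2(normalised count + 1) centred on each gene's mean, the genes nearest to the mean of PSMB8, PSMB9 and PSMB10 were APOL6 (0.208), PARP14 (0.236), HLA-H (0.315), RPH3AL (0.364) and ELF3 (0.379). The search covered 12818 genes with at least 100 normalised counts in at least 2 libraries. APOL6 had means of 417 in MCF10A, 2294 in the HT-29-labelled libraries and 27075 in the MDA-MB-436-labelled libraries. The mean of PSMB8, PSMB9 and PSMB10 is not the profile of any 1 of them, and their own distances to it were not measured. Log2 fold changes against MCF10A in the MDA-MB-436-labelled and HT-29-labelled libraries were 6.02 and 2.46 for APOL6. They were 3.73 and 1.10 for PSMB8, 10.15 and 6.38 for PSMB9, and 3.98 and 0.02 for PSMB10. HLA-H shares near-identical sequence with other HLA genes, so its counts are uncertain. The genes nearest to the mean of PSME1 and PSME2 were GRIPAP1 (0.128), ZBTB26 (0.149), MTMR11 (0.164), KDM6B (0.196) and MAN2A2 (0.205). GRIPAP1 had means of 579, 2211 and 3182 in the same order of lines.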

How the data were processed

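RNA-seq libraries of 3 lines (2 each) were analysed as labelled. The submitters' processing notes name FastQC, STAR 2.2.0, HTSeq and the build hg19; annotation and strand setting were not given in the sources used here. Per the file headers, each deposited table of 23368 rows holds a symbol, a normalised count and an RPKM. The normalised count is, as deposited, a signal: divided by its library's smallest step, 100% of values were whole within 0.001, which recovers whole reads. The deposited RPKM were out of register with the symbols in 3643 rows and served only for transcript lengths once reordered. Left out were 28 rows with date-like names.

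limma 3.58.1 (R 4.3.3), with a trended, robust prior on log2(normalised count + 1), was fitted to 15638 genes with at least 10 normalised counts in at least 2 libraries, with 3 residual degrees of freedom and Benjamini-Hochberg adjustment over all genes. Folds of 1 gene between lines, given as N-fold, compare pooled reads, with 95% exact intervals that cover counting error only. Folds between genes come from the mean log2 ratio over the libraries of a line and have no interval. Ratios per kb used the longest GENCODE transcript and an exact permutation test over 15 partitions. All members are named, and from each list up to 2 called genes per direction without overlap, with the interferon and peptide lists free to be named in full; 1 listed gene is not reported here. Values for other genes (label and cell type markers, POMP, RNF31) are given for checks or chosen after their values were seen. Alternatives were edgeR 4.0.16 and DESeq2 1.42.0 on recovered reads, scalings, filters, pseudocount, prior, length and each library left out. For the MDA-MB-436-labelled libraries against MCF10A, edgeR called 3904 genes higher and 3868 lower, where limma called 3999 and 3702. Over genes, the median chi-square between paired libraries was 0.567 (MCF10A), 0.761 (labelled HT-29) and 0.712 (labelled MDA-MB-436); sampling alone gives 0.455. The members and lists were chosen with earlier results of these data known. The fit was checked on simulated data.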

Additional observations from a re-analysis of the deposited data

How the results depend on the processing

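No called fold change of a member reversed under any alternative run. That of PSMB10 in the HT-29-labelled libraries against MCF10A, which was not called at 0.02, became -0.08 with edgeR, -0.07 with trimmed-mean scaling and -0.02 without the 25M HT-29-labelled library. Over all alternatives, 453 of 459 fold changes kept their side of the threshold, the exceptions being PSMB7 and PSME3. Without 1 library in turn, the count of higher members moved in the HT-29-labelled libraries against MCF10A alone, and counts of lower members did not move. The count of lower other proteasome genes moved in every comparison, most in the HT-29-labelled against the MDA-MB-436-labelled libraries. That of higher other proteasome genes moved in none. With library-size scaling, which moved the median of all genes in the HT-29-labelled libraries from 0.13 to 0.43 against MCF10A and from 0.09 to 0.42 against the MDA-MB-436-labelled libraries, 0 members were lower in the former comparison and 2 higher in the latter, where PSMB7 reached 1.18. Other proteasome genes then numbered 3 higher and 2 lower in the former and 3 lower in the latter, and all genes 5376 higher and 1994 lower (4442 and 2823 as reported) and 5617 and 2822 (4675 and 3675). Trimmed-mean scaling, in edgeR or limma, gave 9 lower other proteasome genes in the HT-29-labelled libraries against MCF10A. With the adjusted p alone, which passes small changes by construction, lower members numbered 3 in the MDA-MB-436-labelled libraries and 2 in the HT-29-labelled libraries against MCF10A, and higher members 3 between these lines. Other proteasome genes were then 14 higher and 18 lower, 10 and 28, and 14 and 24 in the 3 comparisons. With lengths implied by RPKM, PSMB9/PSMB6 was -8.18 in MCF10A, -1.32 in the HT-29-labelled libraries and 2.73 in the MDA-MB-436-labelled libraries. PSMB10/PSMB7 was -1.78, -2.79 and 2.03 in the same order. The cause of the other shifts was not tested. No paired analysis was possible because the labels number no replicates; the 25M label as a block changed no call of a member. PSMB9 in MCF10A rests on 39 reads, which limits its folds.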
